A study of Sus scrofa with 18 samples.

Results

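Myocardin, serum response factor (SRF) and the MEF2 proteins form the transcriptional core of muscle gene expression, and 9 of their genes were examined here out of 28210 genes placed on the pig assembly Sscrofa11.1 by RefSeq. The 9 genes were chosen by name: the coactivators MYOCD, MRTFA and MRTFB, their partner SRF, the MEF2 factors MEF2A, MEF2C and MEF2D, and the zinc finger factors GATA6 and KLF4. Peaks of the histone marks H3K4me3 and H3K27ac were taken from 3 kb before to 3 kb after each gene.

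The tissue was myometrium, the smooth muscle wall of the uterus, from Yorkshire gilts, which are young female pigs that have not yet farrowed. Circular muscle (GD15M_CM) and longitudinal muscle (GD15M_LM) came from naturally mated gilts on day 15 of pregnancy, and circular muscle of cycling gilts (CD15M_CM) came from day 15 of the estrous cycle. All 3 groups came from the mesometrial side of frozen uterus after the endometrium had been cut away with a blade, and each group held 2 gilts. In CUT&Tag an antibody guides the transposase Tn5 to cut the DNA around a mark, and 18 such libraries, for H3K4me3, H3K27ac or a control IgG, were pooled by mark and group by the authors before peaks were called, so that 6 peak lists remained. No difference given here has a replicate check, because each group is 1 list per mark. The groups are layers of whole tissue, in which fewer cells of a type and less mark per cell cannot be told apart.

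SRF is a DNA-binding protein that sits on CArG boxes in the promoters of contractile genes and of growth-induced genes. Myocardin (MYOCD) is its coactivator in smooth and heart muscle, and the related MRTFA and MRTFB enter the nucleus when they are freed from monomeric actin. MEF2 factors belong to the same MADS-box class as SRF, GATA6 is a marker of contractile smooth muscle, and KLF4 is known to oppose myocardin-dependent genes. Of the histone marks, H3K4me3 is found at promoters in use, and H3K27ac at enhancers in use as well as at promoters.

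Peak numbers for H3K4me3 were 33599 (GD15M_CM), 31910 (GD15M_LM) and 36331 (CD15M_CM). The H3K27ac lists held 79877, 57010 and 82037 peaks in the same order. Because the lists differ in length and in the range of their fold enrichment, each peak was given a percentile from 0 to 100, which ranks its fold enrichment among the peaks of the same list. The value of a gene in a list was the highest percentile of any peak in its window, or 0 without a peak. A gene was counted as higher in one list where its percentile was at least 10 points above that in the other, and such counts are set beside the share of all genes with a peak that passed the same limit. All 6 smooth muscle markers looked up (DES, MYH11, ACTG2, CNN1, ACTA2 and TAGLN) held peaks of both marks in every list. None of 5 skeletal muscle markers held an H3K4me3 peak in any list, and 1, PAX7, held an H3K27ac peak in CD15M_CM (percentile 36.2). Of 3 heart muscle markers, 1, TNNI3, held peaks of both marks in every list. H3K4me3 peaks were also held in every list by all 5 endothelial, all 5 epithelial, all 4 fibroblast and 9 of 10 leukocyte markers. Holding a peak therefore does not tell smooth muscle from these cell types.

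H3K4me3 peaks were found at 8 of the 9 regulators in GD15M_CM, where 60.0% of all genes held one. All 9 held a peak in GD15M_LM (61.0% of all genes), and 8 held one in CD15M_CM (61.7%). H3K27ac peaks were found at all 9 in GD15M_CM, GD15M_LM and CD15M_CM, where 62.9%, 61.3% and 64.9% of all genes held one. The regulators therefore lay among the marked genes in all 3 tissues, with MEF2A as the exception for H3K4me3. These shares are over genes of every kind, while all 9 regulators are protein-coding. Of the 17636 genes with an H3K4me3 peak in either pregnant list, 14868 were protein-coding. Protein-coding genes other than MYOCD numbered 19549 in all, so protein-coding genes held such a peak more often than genes of every kind. The shares over all genes are therefore a low background for the 9 regulators. The share of protein-coding genes with a peak in each single list was not taken, so the counts are not compared with it. Among regulators with a peak, the median H3K4me3 percentile was 86.3 in GD15M_CM, 90.6 in GD15M_LM and 87.1 in CD15M_CM. For all genes with a peak the medians were 80.9, 79.4 and 81.8. The median H3K27ac percentile of the regulators was 94.4, 95.4 and 95.8, and that of all genes with a peak 86.9, 83.2 and 85.2. A longer window gives more places for a peak and for a high rank. MRTFA and MRTFB, for example, held 29 H3K27ac peaks each in GD15M_CM. The genes were not matched for length, and its part in these medians was not tested.

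**Figure D1:**
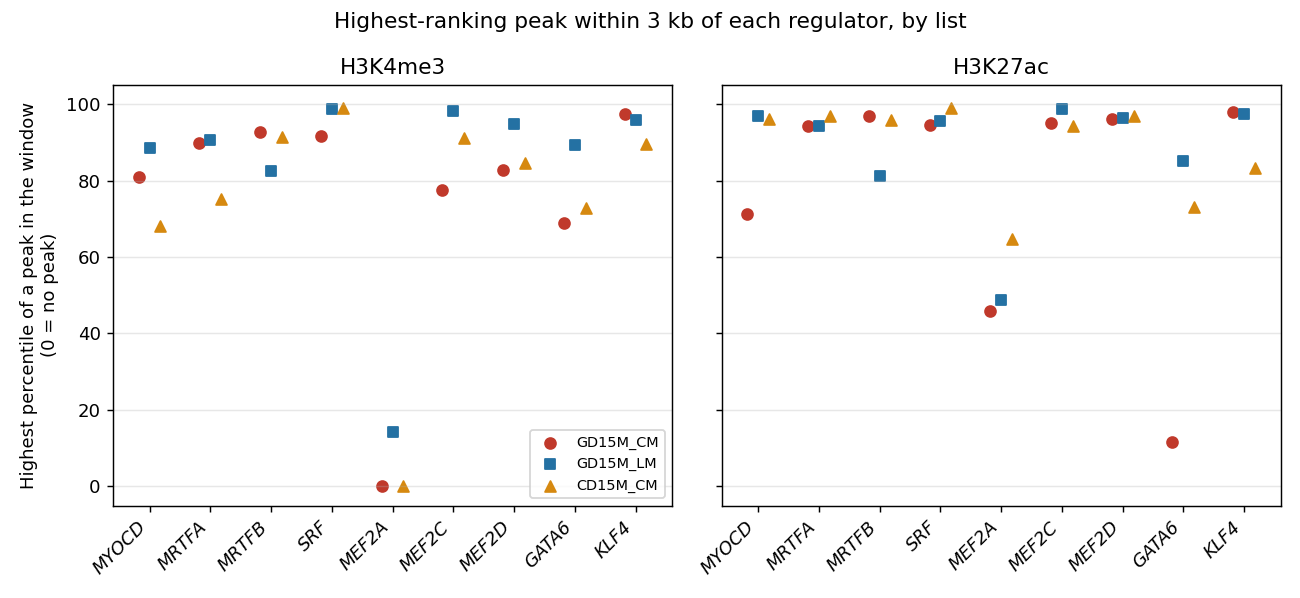
Each point is the highest percentile of a peak in the window of a regulator (vertical axis, 0 to 100, 0 for no peak) in 1 pooled list, with H3K4me3 on the left and H3K27ac on the right; red circles are GD15M_CM, blue squares GD15M_LM and orange triangles CD15M_CM. Most points lie above 80, MEF2A lies lowest for H3K4me3, and the H3K27ac points of MYOCD (71.2) and GATA6 (11.7) in GD15M_CM lie far below those of the other 2 lists.

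Between the muscle layers of pregnant gilts, 4 of the 9 regulators ranked at least 10 points higher in GD15M_LM than in GD15M_CM for H3K4me3, against a background of 20.2% of genes. These were GATA6, MEF2C, MEF2A and MEF2D. The MEF2A call rests on 67 bp of 1 low-ranking peak inside the window, and was lost with a 1-kb window, strict peaks, a 50% overlap (0 points each) or joined peaks (8.98 points). MRTFB ranked higher in GD15M_CM, where the background was 20.9%. The median difference over the 9 regulators was 7.67 points in favour of GD15M_LM, while it was -0.40 points over all genes, and 7 of 9 regulators ranked higher in GD15M_LM by any amount, compared with 48.3% of all genes. For H3K27ac, 2 regulators, GATA6 and MYOCD, ranked at least 10 points higher in GD15M_LM (background 22.5%) and MRTFB ranked higher in GD15M_CM (background 33.8%). The median H3K27ac difference was 1.002 points over the regulators and -2.30 points over all genes.

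Between pregnant and cycling circular muscle, the H3K4me3 percentile was at least 10 points higher in GD15M_CM at MYOCD and MRTFA, 2 of the 8 regulators with a peak in either list (background 12.4%). It was higher in CD15M_CM at MEF2C alone (background 23.9%). For H3K27ac, KLF4 ranked higher in GD15M_CM (background 25.5%), and MYOCD, MEF2A and GATA6 ranked higher in CD15M_CM (background 27.4%). The median differences of the regulators were -0.25 points for H3K4me3 and -2.74 points for H3K27ac, and those of all genes were -2.13 and -0.15. GD15M_CM enters both comparisons, so their results are not independent of each other.

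The highest H3K27ac peak of a gene did not always lie at the same place in the 3 lists. Overlapping peaks of the 3 lists of a mark were therefore joined into regions, and the region with the highest H3K4me3 percentile in any list was taken as the lead region of each gene. The lead region lay over the lower-coordinate end of the gene at MYOCD, SRF, MEF2D and GATA6, and over the higher-coordinate end at KLF4. It lay inside the annotated gene at MRTFA, MRTFB and MEF2C, and just outside it at MEF2A. The direction of transcription was not used, so an end is not called a start.

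Over the lead region, 6 of the 9 regulators ranked at least 10 points higher for H3K27ac in GD15M_LM than in GD15M_CM, where 25.1% of all genes passed the same limit. They were GATA6, MEF2A, MEF2C, SRF, MYOCD and MRTFA, and MRTFB passed the limit in the other direction (background 32.8%). The median difference was 25.6 points over the regulators and -1.77 points over all genes. The lead region of MEF2A was held by the GD15M_LM list alone, so that its place was set by the list in which it was then counted as higher. Without MEF2A, 5 of 8 regulators were higher in GD15M_LM, with a median difference of 21.9 points. The lead place was also set by GD15M_LM at MYOCD, MRTFA, MEF2C, MEF2D and GATA6, and by GD15M_CM at MRTFB and KLF4. Leaving out MEF2A therefore does not make the place independent of the lists compared. At MEF2C the top H3K4me3 region of GD15M_CM was another one, where H3K27ac ranked at 95.0 in GD15M_CM and 97.9 in GD15M_LM. Between the circular layers, SRF, MYOCD, MEF2C and GATA6 ranked higher in CD15M_CM (background 27.3%), and MRTFA and KLF4 ranked higher in GD15M_CM (background 28.7%). At the lead regions of MYOCD, SRF, MEF2C and GATA6, H3K27ac therefore ranked lowest in GD15M_CM of the 3 lists. At MYOCD this held for the highest H3K27ac peak over the lead region, which did not lie at the same place in each list.

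**Figure D2:**
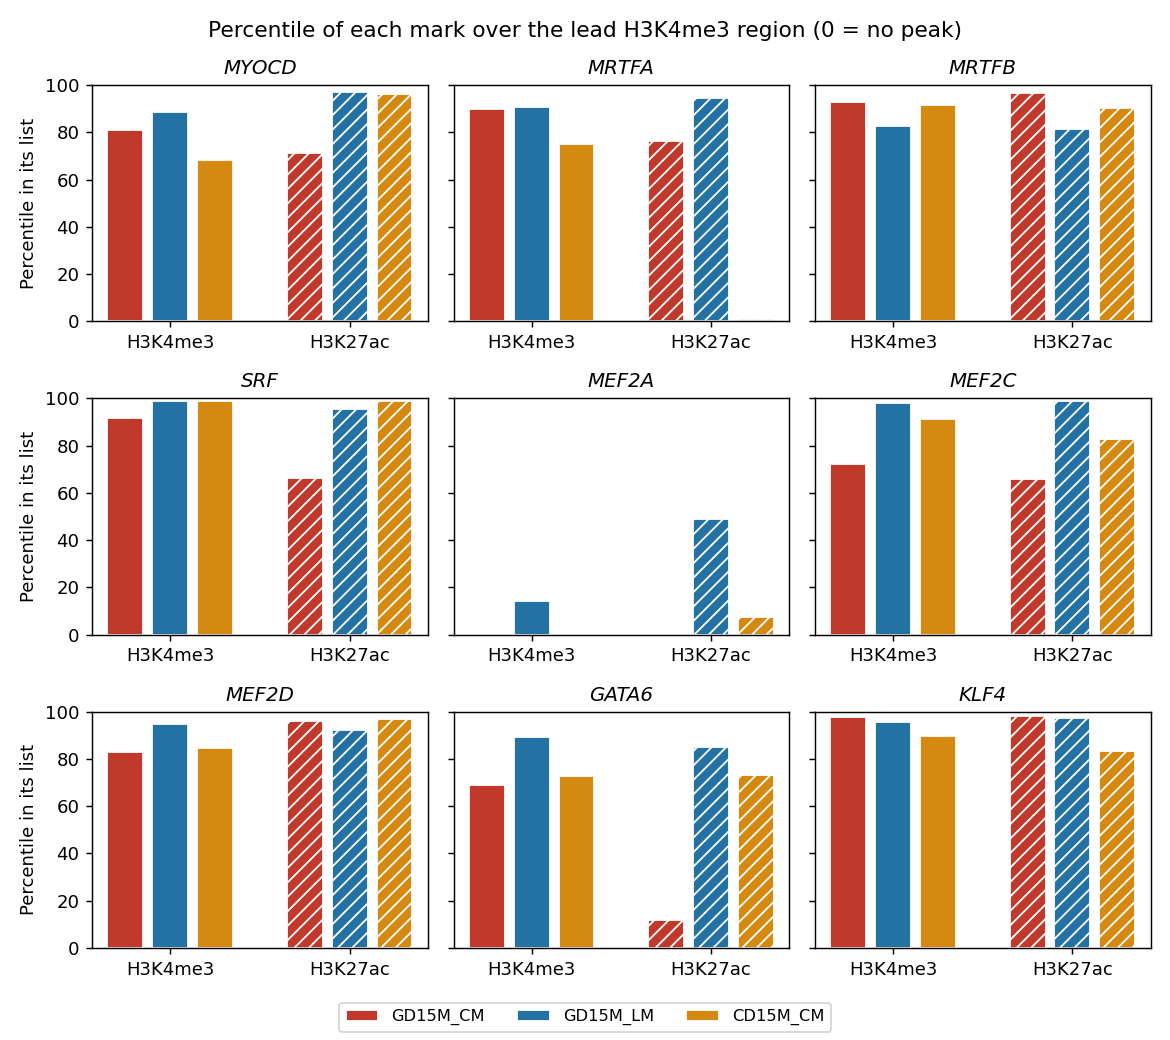
Bars give the percentile (vertical axis, 0 to 100) of H3K4me3 (plain) and H3K27ac (hatched) over the lead H3K4me3 region of each regulator in GD15M_CM (red), GD15M_LM (blue) and CD15M_CM (orange), with no bar where a list held no peak there. The red hatched bar is the lowest of the 3 at MYOCD, SRF, MEF2C and GATA6 and missing at MEF2A, and the orange hatched bar is near 0 at MRTFA (0.83).

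MYOCD, the muscle-restricted coactivator, lies at chr12:56931628-57029258 and spans 97.6 kb. Its H3K4me3 was concentrated in 1 region over the lower-coordinate end. The fold enrichment of that peak was 15.9 in GD15M_CM, 24.7 in GD15M_LM and 11.3 in CD15M_CM, and the percentiles were 80.9, 88.6 and 68.2. The size of the difference between GD15M_CM and CD15M_CM rested on the measure. When peaks were ranked by −log10 p, the 12.8 points between the circular lists became 1.31, still in favour of GD15M_CM. The raw −log10 p of this peak was 58.5, 109 and 65.1. The peak was longest in GD15M_LM, at 6207 bp, compared with 4157 bp in GD15M_CM and 4545 bp in CD15M_CM. The region also overlapped LOC110256113, a long non-coding RNA gene whose nearer end lies 523 bp from MYOCD, so peaks here cannot be assigned to one of the 2 genes. A second H3K4me3 peak of 945 bp, 45.6 kb inside the gene and within a second non-coding RNA gene, LOC110256112, was found in GD15M_LM only, at percentile 52.6.

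The highest H3K27ac percentile of MYOCD was 71.2 in GD15M_CM, 96.9 in GD15M_LM and 96.1 in CD15M_CM, with fold enrichments of 4.12, 7.85 and 6.45. GD15M_CM thus lay 25.6 points below GD15M_LM and 24.9 points below CD15M_CM. Differences at least as large in the same direction were found at 11.14% and 14.7% of all genes with a peak. The top peaks of the lists did not all lie at the same place. The H3K27ac region over the lower end ranked at 71.2, 58.9 and 96.1, so GD15M_LM was lowest there. The region beginning 0.478 kb inside the gene ranked at 70.2, 96.9 and 88.9, with GD15M_CM lowest. Along the gene, H3K27ac peaks numbered 7 in GD15M_CM, 11 in GD15M_LM and 16 in CD15M_CM, and covered 3654, 10170 and 12539 bp. Of 19 joined H3K27ac regions, 3 were in all lists, 7 were in CD15M_CM only, 3 in GD15M_LM only and 1 in GD15M_CM only, or 36.8%, 15.8% and 5.26%, compared with 20.02%, 5.46% and 21.9% of all H3K27ac regions in the genome. A further 5 (26.3%, compared with 7.69%) were shared by GD15M_LM and CD15M_CM and missing from GD15M_CM, and they lay 13.8 to 73.3 kb inside the gene. An internal region 45.4 kb from the lower end was in all lists, at percentiles 19.5, 78.3 and 82.7. Its H3K27ac covers the place of the second H3K4me3 peak.

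**Figure D3:**
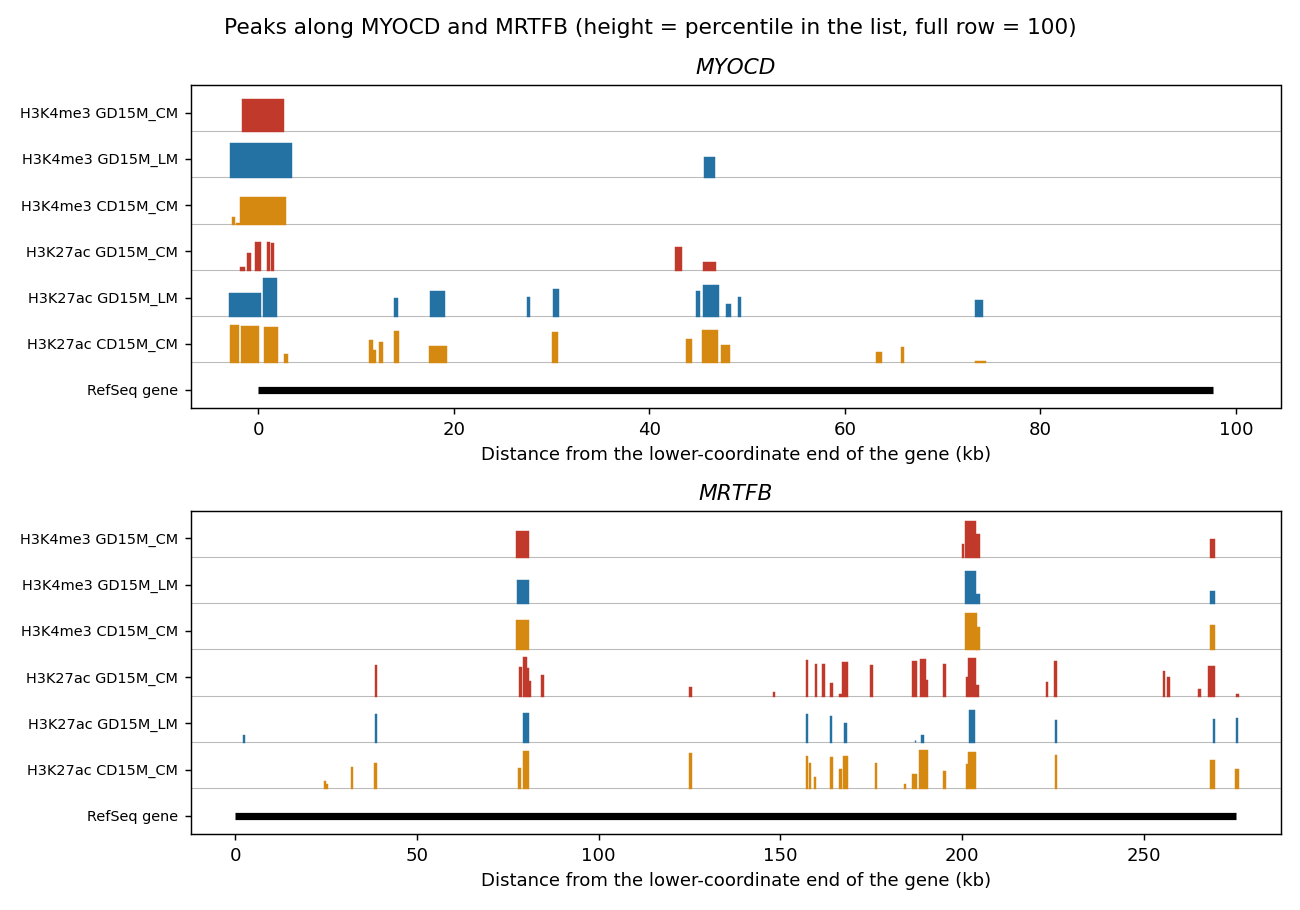
Peaks along MYOCD and MRTFB by distance from the lower-coordinate end of the gene (horizontal axis, kb), 1 row per list, with the height of a block giving the percentile of the peak (a full row is 100) and the black bar the RefSeq gene. MYOCD has fewer and lower H3K27ac blocks in GD15M_CM (7 peaks) than in GD15M_LM (11) or CD15M_CM (16), while MRTFB has fewest in GD15M_LM (12, compared with 29 and 23).

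MRTFA, listed by RefSeq under its older symbol MKL1, lies at chr5:7751350-7975927 and spans 225 kb. Its lead H3K4me3 region began 24.0 kb inside the lower end and had percentiles of 89.8 in GD15M_CM, 90.6 in GD15M_LM and 75.2 in CD15M_CM. Fold enrichments were 20.2, 26.0 and 15.7. The pregnant layers thus differed by less than 1 point, and CD15M_CM lay 14.6 points below GD15M_CM, a difference reached by 6.86% of genes. The raw −log10 p of the lead peak was 118, 138 and 132, higher in CD15M_CM than in GD15M_CM. When peaks were ranked by −log10 p within their lists, GD15M_CM still lay 8.32 points above CD15M_CM.

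H3K27ac over the lead region of MRTFA was present in all lists but ranked far apart, at percentile 76.1 in GD15M_CM, 94.4 in GD15M_LM and 0.83 in CD15M_CM. In cycling muscle the peak was 2419 bp long, with a fold enrichment of 2.15 and a −log10 p of 4.42, compared with 7.09 and 19.1 in GD15M_LM. The highest H3K27ac percentile over the whole window nevertheless differed little, at 94.3, 94.4 and 97.0, because other places inside the gene took the top rank in both circular lists. In GD15M_CM the top peak began 142 kb and in CD15M_CM 196 kb from the lower end. The window held 29, 20 and 24 H3K27ac peaks, and 12 of 32 joined regions were in all lists. One internal region 160 kb from the lower end ranked at 41.1 in GD15M_CM, 17.1 in GD15M_LM and 95.2 in CD15M_CM.

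MRTFB, listed as MKL2, lies at chr3:28964758-29240125 and is the longest of the 9 genes at 275 kb. It was the one regulator that ranked at least 10 points lower in GD15M_LM than in GD15M_CM for both marks over the whole window. These differences rest on regions inside the gene. Within 3 kb of either gene end no list held an H3K4me3 peak, so no H3K4me3 difference could be taken there. H3K27ac ranked 55.5 points higher in GD15M_LM there, which rests on short peaks at the higher end. These were 549 bp long at percentile 5.24 in GD15M_CM and 379 bp at 60.7 in GD15M_LM. With equal numbers of peaks from each list, the H3K4me3 difference was -9.70 points, just under the limit. The lead H3K4me3 region, 200.8 kb from the lower end, had percentiles of 92.7 in GD15M_CM, 82.6 in GD15M_LM and 91.4 in CD15M_CM. Fold enrichments were 22.1, 21.2 and 25.9, so GD15M_LM and GD15M_CM differed in rank more than in enrichment. The H3K27ac percentile over the same region was 96.4, 81.2 and 90.4.

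Across the MRTFB window, 29 H3K27ac peaks were found in GD15M_CM, 12 in GD15M_LM and 23 in CD15M_CM, covering 17482, 5702 and 15204 bp. Of 34 joined regions, GD15M_CM held 27, GD15M_LM 12 and CD15M_CM 23. Over the whole genome GD15M_LM held 46.4% of all joined H3K27ac regions and GD15M_CM 66.8%, so GD15M_LM held fewer regions than GD15M_CM in general as well. At MRTFB the shares were 35.3% and 79.4%. A pair of regions 186 and 188 kb from the lower end was in all lists with low ranks in GD15M_LM (4.09 and 16.5) beside 88.1 and 93.4 in GD15M_CM and 35.3 and 95.8 in CD15M_CM. A second H3K4me3 region, 77.35 kb from the lower end, ranked at 65.1, 58.9 and 75.3, and the H3K27ac region over it at 96.9, 74.4 and 93.7. MRTFB was marked at the same 4 H3K4me3 places in every list, and 1 further region was found in GD15M_CM only.

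SRF, the DNA-binding partner of all 3 coactivators, is a compact gene of 10.4 kb at chr7:38213300-38223686. Its H3K4me3 region over the lower end was among the strongest of the 9 genes, with percentiles of 91.8 in GD15M_CM, 98.8 in GD15M_LM and 98.9 in CD15M_CM. Fold enrichments were 21.4, 38.3 and 38.2. GD15M_LM and CD15M_CM were nearly level, and GD15M_CM lay about 7 points below each (7.06 and 7.10), under the limit of 10.

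H3K27ac over the same SRF region showed a wider gap, at percentile 66.5 in GD15M_CM, 95.4 in GD15M_LM and 98.9 in CD15M_CM. Fold enrichments were 3.96, 7.36 and 7.78, and the peak was of similar length in the 3 lists (4609, 4574 and 4271 bp). The differences of 29.0 and 32.5 points were not seen in the top percentile of the gene (94.4, 95.4 and 98.9), because a second region took the top rank in GD15M_CM. That region lay over the higher end of SRF, which is 337 bp from the neighbouring gene CUL9, and overlapped both genes. Its H3K27ac percentiles were 94.4, 78.1 and 90.6 and its H3K4me3 percentiles 85.9, 94.9 and 94.2. An H3K27ac region 7.10 kb inside SRF was also lowest in GD15M_CM, at 19.2, 78.7 and 65.5, whereas one 4.19 kb inside was highest there, at 66.1, 46.1 and 14.4.

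The 3 MEF2 genes were marked in quite different ways. MEF2D, at chr4:93581563-93616980, was covered by H3K27ac over most of its length. Its H3K27ac peaks covered 65.9% of the window in GD15M_CM, 62.3% in GD15M_LM and 73.2% in CD15M_CM, and the top percentiles were 96.2, 96.4 and 96.8. A joined H3K27ac region of 16737 bp began 2.45 kb before the lower end and was in all lists. The top percentiles were within 0.60 points of each other but came from 3 different places. Single regions inside MEF2D varied more, with percentiles of 13.1, 26.4 and 88.0 for one 29.7 kb from the lower end and 70.0, 5.39 and 13.6 for one at 19.2 kb. Its H3K4me3 region over the lower end was 7534 bp long and ranked at 82.8, 94.7 and 84.6, which put GD15M_LM 11.9 points above GD15M_CM, a difference reached by 17.1% of genes. Ranked by −log10 p, the difference was 3.63 points.

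MEF2C, at chr2:96122407-96296927, spans 175 kb and carried its strongest marks inside the gene, near the higher end. The lead H3K4me3 region of 4044 bp lay 18.96 kb from that end and had fold enrichments of 12.1 in GD15M_CM, 35.9 in GD15M_LM and 25.7 in CD15M_CM, with percentiles of 72.1, 98.1 and 91.1. H3K27ac had the same order there, at 66.1, 98.7 and 82.6, with fold enrichments of 3.93, 8.93 and 4.74. GD15M_CM lay lowest and GD15M_LM highest for both marks at this place, which a window of 3 kb around either gene end does not hold.

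A second MEF2C region lay 13.65 kb from the higher end, inside the overlapping non-coding RNA gene LOC102159394. Its H3K4me3 percentiles were 77.5, 90.1 and 83.0, and its H3K27ac percentiles 95.0, 97.9 and 92.9. The 2 regions therefore differed in H3K27ac: the first ranged from 66.1 to 98.7 over the lists and the second from 92.9 to 97.9. The second was the top-ranking region of the gene in GD15M_CM, for which reason the highest H3K27ac percentile of the gene (95.0, 98.7 and 94.2) did not show the gap at the first. Another region, 108 kb from the lower end, had H3K27ac percentiles of 89.4, 79.9 and 94.2 and little or no H3K4me3 in the circular lists (2.99 and 0), compared with 48.6 in GD15M_LM.

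**Figure D4:**
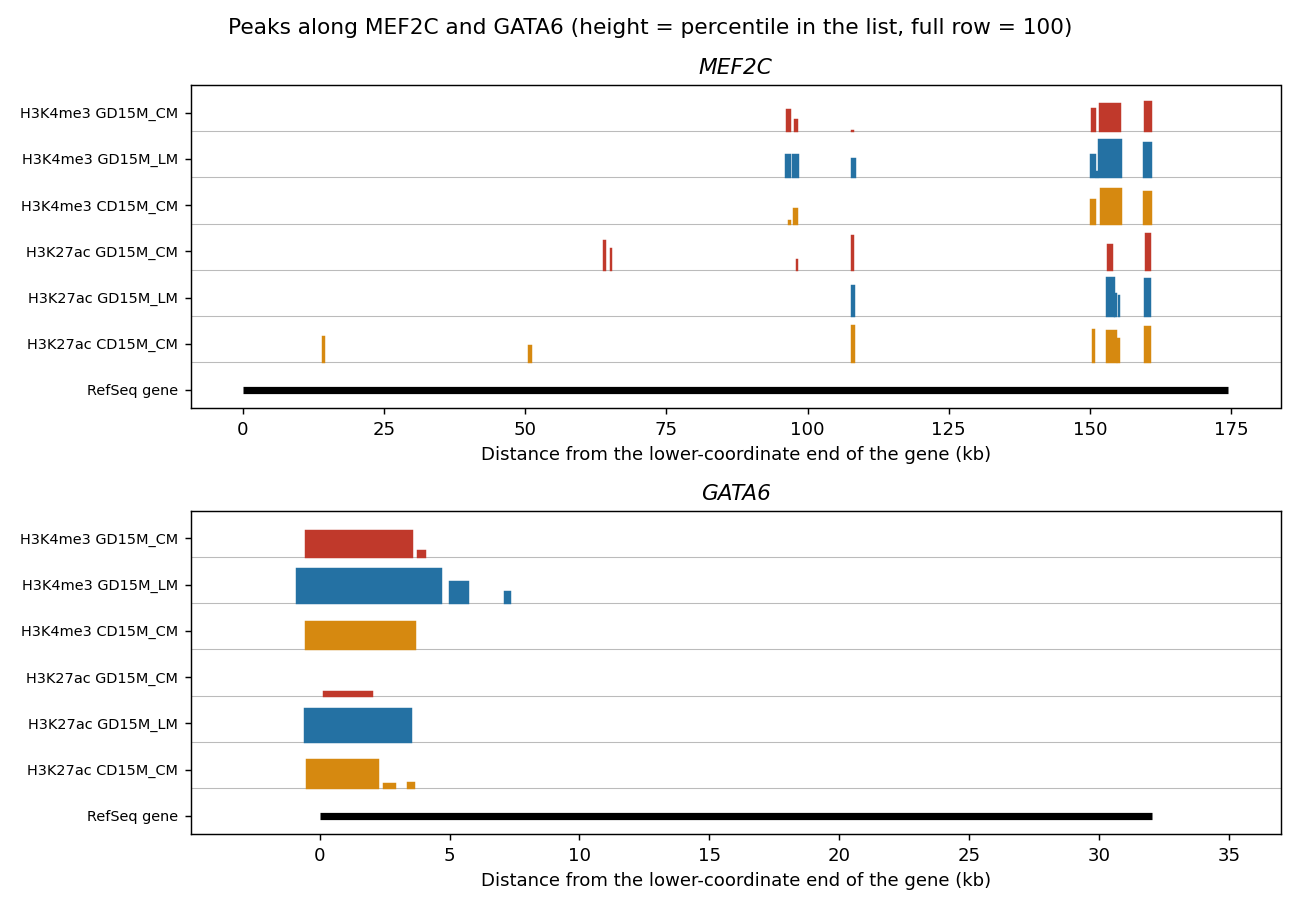
Peaks along MEF2C and GATA6 by distance from the lower-coordinate end of the gene (horizontal axis, kb), 1 row per list, with block height giving the percentile (a full row is 100) and the black bar the RefSeq gene. At MEF2C the widest blocks lie at about 152 kb and are tallest in GD15M_LM, and at GATA6 the H3K27ac block of GD15M_CM is short and low (percentile 11.7).

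MEF2A, at chr1:138398270-138508639, held few and low-ranking peaks in its window. Whether the RefSeq gene model used here holds all exons of MEF2A was not tested, so these values describe the window and not necessarily the promoter of the gene. No H3K4me3 peak was found in GD15M_CM or CD15M_CM, and the single GD15M_LM peak of 627 bp, 2.93 kb before the lower end, ranked at percentile 14.3. The highest H3K27ac percentiles were 45.9, 48.8 and 64.7, from peaks of 230, 775 and 430 bp. The values of MEF2A were the lowest of the 9 genes in every list but one, the H3K27ac list of GD15M_CM, where GATA6 was lower. The flanks were looked up after these values were seen. A region of 4347 bp at chr1:138339439-138343785, 54.5 kb before the lower end and over no RefSeq gene, had H3K4me3 percentiles of 86.3 in GD15M_CM, 80.3 in GD15M_LM and 97.0 in CD15M_CM. H3K27ac there ranked at 97.2, 99.0 and 99.9. These peaks lie outside the window and enter none of the counts, and which gene they belong to was not tested.

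GATA6, at chr6:107282709-107314725, showed the largest H3K27ac differences of the 9 genes in both comparisons by the highest percentile in the window. Over the lead regions, MRTFA differed more than GATA6 between the circular lists (75.3 and 61.4 points). All lists had 1 region over the lower end, which also overlaps the neighbouring protein-coding gene LOC100525229. The H3K27ac percentile was 11.7 in GD15M_CM, 85.1 in GD15M_LM and 73.2 in CD15M_CM, with fold enrichments of 2.61, 5.68 and 4.22. GD15M_LM lay 73.4 points above GD15M_CM, a difference that 1.002% of 18567 genes reached. CD15M_CM lay 61.4 points above GD15M_CM, which 3.09% of 18998 genes reached, but neither circular list kept a peak here under a stricter limit of fold enrichment of 5 and −log10 p of 10. The peak was also shorter in GD15M_CM, at 1889 bp, compared with 4145 bp in GD15M_LM and 2780 bp in CD15M_CM.

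H3K4me3 over the same GATA6 region was present in all lists with a smaller spread. Fold enrichments were 10.7 in GD15M_CM, 25.2 in GD15M_LM and 14.3 in CD15M_CM, and percentiles 69.0, 89.4 and 72.7. GD15M_LM was 20.4 points above GD15M_CM, a difference found in 8.15% of genes, while the circular lists were 3.69 points apart. The 2 circular lists were thus close for H3K4me3 and far apart for H3K27ac. GD15M_LM also held 2 further H3K4me3 peaks, 4.97 and 7.11 kb inside the gene, that were in neither circular list.

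KLF4, at chr1:248604817-248609574, is the shortest gene at 4.76 kb and was marked over its higher end. H3K4me3 ranked at 97.5 in GD15M_CM, 95.8 in GD15M_LM and 89.7 in CD15M_CM, and the highest H3K27ac percentile was 97.9, 97.5 and 83.3. By percentile KLF4 therefore stood highest in the pregnant layers, which were within 2 points of each other for both marks. For H3K4me3, GD15M_CM lay 7.82 points above CD15M_CM, under the limit of 10 and reached by 16.7% of genes. The raw −log10 p of this H3K4me3 peak was 125, 149 and 165, highest in CD15M_CM. The long H3K27ac region over the higher end gave a wider gap, at 97.9, 97.5 and 49.8, with fold enrichments of 7.32, 8.11 and 3.51. In CD15M_CM the top H3K27ac peak was instead one of 501 bp beyond that end. KLF4 was the one regulator whose H3K27ac rank was at least 10 points higher in GD15M_CM than in CD15M_CM over the whole window. The difference of 14.6 points was reached by 20.3% of genes.

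**Figure D5:**
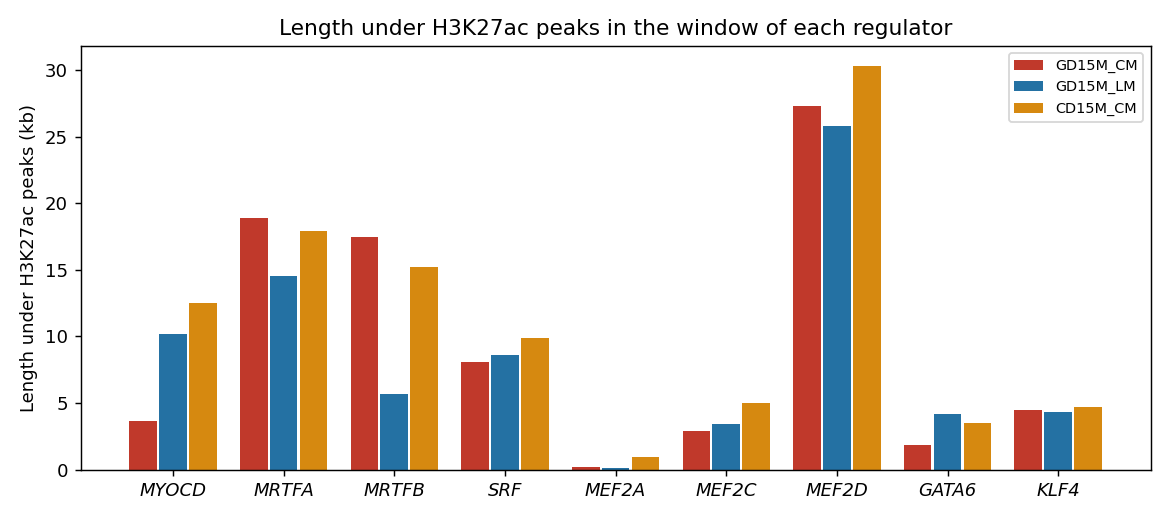
Bars give the length under H3K27ac peaks within the window of each regulator (vertical axis, kb) in GD15M_CM (red), GD15M_LM (blue) and CD15M_CM (orange). MEF2D has the most in all lists, MYOCD has least in GD15M_CM (3654 bp), and MRTFB has least in GD15M_LM (5702 bp).

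Joined over the 3 lists, the windows of the 9 genes held 47 H3K4me3 and 122 H3K27ac regions. Of the H3K4me3 regions, 25 were in all lists (53.2%, compared with 44.1% of all 43390 regions in the genome) and 11 were in GD15M_LM only (23.4%, compared with 12.2%). Of the H3K27ac regions, 46 were in all lists (37.7%, compared with 31.5% of 104769). GD15M_CM alone held 24, CD15M_CM alone 20 and GD15M_LM alone 7, or 19.7%, 16.4% and 5.74%, which lay near the 21.9%, 20.02% and 5.46% of all regions. Inside the annotated genes lay 104 of the 122 H3K27ac regions. The genes themselves make up most of the windows, so a majority there was set by the choice of window. The marks overlapped at 36 of the 47 H3K4me3 regions (76.6%, compared with 71.1% overall) and at 37 of the 122 H3K27ac regions (30.3%, compared with 33.1%). H3K27ac regions without H3K4me3 numbered 28 each at MRTFA and MRTFB, 15 at MYOCD, 8 at MEF2D, 4 at MEF2C, 2 at MEF2A and 0 at SRF, GATA6 and KLF4.

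Among 30 other regulators of smooth muscle genes, 25 held an H3K4me3 peak in each list, where 60.0% to 61.7% of all genes held one. GATA5 and the muscle methyltransferase gene SMYD1 held no peak of either mark in any list. Between the pregnant layers, 9 of 25 ranked at least 10 points higher in GD15M_LM for H3K4me3 and 2 in GD15M_CM (backgrounds 20.2% and 20.9%), and for H3K27ac 8 and 7 of 28 (22.5% and 33.8%). Both marks were higher in GD15M_LM at ELK3, HDAC9, FHL1, PRRX1 and TWIST1 and higher in GD15M_CM at HDAC5. ELK3, a ternary complex factor that binds with SRF, had H3K4me3 percentiles of 69.4 in GD15M_CM, 97.6 in GD15M_LM and 90.5 in CD15M_CM, and H3K27ac percentiles of 87.2, 99.0 and 91.6. FHL1, a LIM-domain protein of muscle, had 61.5, 96.7 and 72.9 for H3K4me3 and 69.9, 96.0 and 94.0 for H3K27ac. HDAC5, a class IIa deacetylase that represses MEF2, showed the opposite order of the layers, with 91.2, 60.7 and 86.4 and then 98.9, 78.8 and 94.9. Its relative HDAC9 ranked at 61.5, 82.1 and 80.3 for H3K4me3 and 74.3, 87.0 and 88.6 for H3K27ac.

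Between the circular lists, 9 of the 25 other regulators ranked higher in CD15M_CM for H3K4me3 and 2 in GD15M_CM (backgrounds 23.9% and 12.4%), and for H3K27ac 8 and 5 of 27 (27.4% and 25.5%). TEAD3, HDAC9, FHL1, PRRX1 and TWIST1 were higher in CD15M_CM for both marks. The mesenchymal homeobox gene PRRX1, for example, had H3K27ac percentiles of 65.9 in GD15M_CM, 96.5 in GD15M_LM and 94.5 in CD15M_CM. FOXO4, a forkhead factor that binds myocardin, was higher in GD15M_CM for both, with H3K4me3 percentiles of 93.0 and 77.7 and H3K27ac percentiles of 86.5 and 55.1 in GD15M_CM and CD15M_CM.

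All 20 genes listed as targets of SRF held peaks of both marks in every list. Of all genes, protein-coding or not, 60.0% to 61.7% held an H3K4me3 peak and 61.3% to 64.9% an H3K27ac peak. For H3K4me3, 7 of 20 ranked at least 10 points higher in GD15M_LM than in GD15M_CM and 2 lower (backgrounds 20.2% and 20.9%), and 9 ranked higher in CD15M_CM than in GD15M_CM and 1 lower (backgrounds 23.9% and 12.4%). For H3K27ac 5 were higher in each layer (backgrounds 22.5% for GD15M_LM and 33.8% for GD15M_CM), and 4 in each circular list (27.4% for CD15M_CM and 25.5% for GD15M_CM), so the H3K27ac counts lay near or below the backgrounds. The intermediate filament gene DES had H3K27ac percentiles of 68.6 in GD15M_CM, 94.3 in GD15M_LM and 87.8 in CD15M_CM, and the actin crosslinker FLNA 60.0, 87.2 and 63.2. The immediate early gene EGR1 ranked at 98.1, 31.3 and 35.8, and the matricellular gene CCN1 at 99.1, 91.9 and 74.1. DES and FLNA were thus lowest in GD15M_CM, and EGR1 and CCN1 highest.

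Markers of the tissue's cell types also differed between the lists. The smooth muscle markers had median H3K4me3 percentiles of 74.0 in GD15M_CM, 88.3 in GD15M_LM and 87.3 in CD15M_CM, with ranges of 71.0 to 85.1, 71.4 to 96.7 and 78.6 to 94.5. For H3K27ac the medians were 85.9, 91.0 and 92.5, with ranges of 68.6 to 97.4, 79.0 to 95.1 and 87.8 to 98.7. Their lowest median was in GD15M_CM for both marks, but MYH11, TAGLN and ACTA2 had lower H3K27ac ranks in GD15M_LM than in GD15M_CM. At the lead regions GD15M_CM ranked lowest for both marks at SRF, MEF2C and GATA6, but not at MYOCD, MRTFA, MRTFB, MEF2D or KLF4. At MEF2A neither circular list held an H3K4me3 peak. All 5 epithelial markers (EPCAM, KRT8, KRT18, CDH1 and ESRP1) ranked at least 10 points higher in GD15M_CM than in GD15M_LM for both marks. The background was 20.9% for H3K4me3 and 33.8% for H3K27ac. The epithelial markers had median H3K4me3 percentiles of 79.4, 59.1 and 84.5 and H3K27ac percentiles of 76.1, 19.8 and 71.9. Their H3K27ac percentiles ranged from 66.0 to 84.1 in GD15M_CM, from 0 to 42.1 in GD15M_LM and from 4.75 to 84.9 in CD15M_CM, and KRT18 was the one at 0. Of 10 leukocyte markers, 9 held an H3K4me3 peak, of which 4 ranked at least 10 points higher in GD15M_CM than in CD15M_CM (background 12.4%) and 0 lower, with medians of 64.3 and 52.8 over all 10. For H3K27ac 6 held a peak, with 2 higher in GD15M_CM (background 25.5%) and 2 higher in CD15M_CM (background 27.4%), and medians of 31.4 and 40.1. The part of these cell types in the differences of the 9 regulators was not tested.

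The 5 protein-coding genes whose percentiles were most like those of MYOCD over the 6 lists, by mean absolute difference among 19549 genes, were ABRACL, LOC110259990, SMIM11A, POP1 and RIDA. Their mean differences were 2.71, 2.71, 2.74, 3.004 and 3.004 points. ABRACL and LOC110259990 have identical values, as have POP1 and RIDA, because each pair shares its top peaks, so the 5 genes stand for 3 places. ABRACL had H3K27ac percentiles of 72.0 in GD15M_CM, 96.9 in GD15M_LM and 94.8 in CD15M_CM.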

How the data were processed

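Peak lists of H3K4me3 and H3K27ac CUT&Tag in 3 groups of pig myometrium were analysed, 1 pooled list per mark and group. According to the methods and labels, the authors mapped reads to Sscrofa11.1 with BWA 0.7.17-r1188, removed duplicates and reads with mapping quality under 25 using SAMtools 1.9 and Picard 2.8.3, pooled replicates, and called peaks with MACS2 2.2.6. The deposited lists give each peak a fold enrichment (a linear ratio) and the −log10 of its p-value. A further column, which by its values holds −log10 q, was not used. Totals of reads are not in the lists, so no counting interval is given.

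Genes were placed by RefSeq coordinates of Sscrofa11.1. MRTFA, MRTFB, CCN1 and CCN2 were matched by their older symbols MKL1, MKL2, CYR61 and CTGF. The table gives no strand and no sequence, so promoter sequences and motifs were not analysed here. Peaks overlapping the window by at least 1 bp were counted and ranked within their list with Python 3.11.15, pandas 2.3.3 and NumPy 2.4.6, and figures were drawn with Matplotlib 3.10.9. The steps were tested on simulated data. GD15M_LM was compared with GD15M_CM, and GD15M_CM with CD15M_CM, by description alone, since 1 list per group allows no test. GD15M_LM and CD15M_CM differ in layer and in pregnancy and were set side by side only.

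The 9 genes, the gene lists and the markers were chosen with earlier results of these data known. Other regulators are named where both marks differed by at least 10 points in one direction, or where no list held a peak. At most 4 targets are named, by the size of their difference, and the 5 protein-coding genes most like MYOCD. The markers MYH6, MSLN and S100B were not placed. Windows of 1 kb, strict peaks (−log10 p from 10 and fold enrichment from 5), ranks by −log10 p, equal numbers of peaks, joined peaks, a 50% overlap, a limit of 20 points and protein-coding backgrounds were tried as alternatives.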

Additional observations from a re-analysis of the deposited data

How the results depend on the processing

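Each pooled list is a single sample, so no replicate could be left out. No paired analysis was possible because replicates were pooled before peaks were called. A window around the transcription start was not run, since no strand was given. A window of 3 kb around either gene end was added after the data had been seen. Of 15 differences of at least 10 points, 7 kept their sign and 5 stayed past the limit under all 7 alternatives: GATA6 between the layers for both marks, MYOCD for H3K27ac in both comparisons, and KLF4 for H3K27ac between the circular lists. The H3K27ac difference of GATA6 between the circular lists became 0 with strict peaks, which neither list then held, as did those over the lead regions of MRTFA and MEF2C. The protein-coding backgrounds, run only for the shares of genes past the 10-point limit, left all those shares within 1.5 times.

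Counts of regulators that moved by more than 1.5 times were as follows. With windows around either gene end, 5 regulators held an H3K4me3 peak in GD15M_CM and 5 in CD15M_CM. For H3K4me3 in GD15M_LM over GD15M_CM, the 20-point limit left 2 in place of 4. In the reverse direction the count of 1 became 0 with equal numbers of peaks, either gene end or 20 points. For H3K4me3 in GD15M_CM over CD15M_CM, the count of 2 became 0 by −log10 p, 1 with either end and 0 with 20 points. In the reverse direction the count of 1 became 2 with strict or joined peaks and 0 with either end or 20 points. For H3K27ac in GD15M_LM over GD15M_CM, the count of 2 became 6 with strict peaks and 5 with either end. In the reverse direction the count of 1 became 2 with 1-kb windows or a 50% overlap and 0 with either end or 20 points. For H3K27ac in GD15M_CM over CD15M_CM, the count of 1 became 0 with 20 points. Over the lead regions, tried after the data had been seen, the 20-point limit left 0 in GD15M_CM over GD15M_LM and 1 in GD15M_CM over CD15M_CM, and strict peaks left 2 in CD15M_CM over GD15M_CM. The H3K27ac difference of MRTFB, -15.7 points between GD15M_LM and GD15M_CM, reversed to 55.5 points around either gene end, which leaves out the regions deep inside the gene. The reversed value rests on short peaks at the higher end. The cause of the other changes was not tested.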
